A study of Mus musculus with 12 samples.

Results

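The Schlafen genes form a mammalian family that in the mouse lies mostly in 1 cluster on chromosome 11, and 7 of them (Slfn1, Slfn2, Slfn3, Slfn4, Slfn5, Slfn8 and Slfn9) were taken by gene symbol, with earlier results of these data known, out of 55202 genes in the count table. Only 3 of the 7 (Slfn2, Slfn8 and Slfn9) had enough counts to be tested, among 11511 tested genes in all. RNA had been sequenced in 12 libraries, of which 6 are labelled as A3 TAM with DMBA exposure and 6 as O3 TAM with DMSO exposure (called DMBA3-4 and DMSO3-1 libraries here, after the tumor lines the study names). TAMs are tumor-associated macrophages, which the study describes as sorted for CD45, CD11b and F4/80 from tumors grown in female Rag1-/- mice, which lack mature T and B cells, so that both groups come from hosts without them. The DMBA3-4 tumors arose from a single-cell clone of a mouse mammary tumor line exposed to the carcinogen DMBA (7,12-dimethylbenz[a]anthracene) in 3 cycles, and the DMSO3-1 tumors from a single-cell clone of the same line given the vehicle DMSO. The line carries the polyoma middle T oncogene under a mammary tumor virus promoter, was derived on the C57BL/6 background and was labelled with mCherry and luciferase. Each group therefore stands for 1 clone, and exposure cannot be told apart from a difference between the clones. The sources used here give neither the host age nor the number of mice behind the libraries, so p-values measure the spread between libraries, which may be technical.

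Schlafen proteins share an N-terminal core domain that in several members binds or cleaves RNA, and many of the genes respond to type I interferon. The short proteins Slfn1 and Slfn2 hold little beyond the core, Slfn3 and Slfn4 are of intermediate length, and Slfn5, Slfn8 and Slfn9 are long and carry a helicase-like region. The family is known for restraining the growth of T cells and myeloid cells, and in mouse macrophages several members are induced by interferon or microbial products.

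The labelled cell type was checked against its defining genes before the family was read. The count table held few of the transcripts that define macrophages, namely 0 to 7 counts per library for Ptprc (CD45) and 0 to 3 each for Itgam (CD11b) and Adgre1 (F4/80). The summed share of 12 macrophage markers was 0.00652% to 0.00988% in DMBA3-4 libraries and 0.00558% to 0.00851% in DMSO3-1 libraries, with 5 of the 12 passing the count filter and none of the 12 at 0 in all libraries. Among the 12, Mertk and Cd14 were highest, at 28.3 and 22.1 CPM in DMBA3-4 and 36.7 and 17.6 CPM in DMSO3-1 libraries. For 8 natural killer cell markers, other possible carriers of Schlafen RNA, it was 0% to 8.18e-05% and 0% to 0.000294%, with Nkg7 and Gzmb at 0 in all 12 libraries, and for 8 T cell markers 0.000133% to 0.000259% and 3.63e-05% to 0.000529%, with Cd8a at 0. The 8 fibroblast markers held 0.0975% to 0.166% and 0.143% to 0.20%. The 8 epithelial and mammary tumor markers held 0.152% to 0.215% and 0.102% to 0.176%, with Epcam at 0. The 5 endothelial markers held 0% to 0.00013% and 0.000251% to 0.000881%, but none of the 5 passed the count filter. Cdh5 held 0 to 3 counts per library against 2 to 26, while Kdr went the other way, at 0 to 4 against 0. The keratins Krt8 and Krt18 averaged 744 and 1008 CPM in DMBA3-4 libraries and 502 and 857 CPM in DMSO3-1 libraries. The other keratins listed, Krt19 and Krt7, reached at most 1 and 5 counts in any library, and Cldn7 at most 2. Of the fibroblast markers, Col3a1 averaged 640 CPM in DMBA3-4 and 583 CPM in DMSO3-1 libraries. Col1a2 and Thy1 reached at most 4 and 1 counts in any library. The shares of both lists thus rest on part of their genes, and neither names a cell type. Single markers differed between the groups in edgeR's test, among them, chosen after their values were seen, C1qb (log2 fold change 2.24), Lum (2.26), Pdgfrb (-1.39), Cldn3 (-3.31) and Cdh1, at 0.135 CPM against 4.74 CPM. C1qb would not have passed the count filter without the DMBA3-4 libraries, nor Cldn3 and Cdh1 without the DMSO3-1 libraries. In the DMBA3-4 group, all counts of Cldn3 (0 to 55 per library) and of Cdh1 (0 to 3) came from replicate 5 alone. The size of the Cldn3 change therefore depends on that library. The defining markers thus go against the labelled cell type, the part of cell composition in the results was not tested, and the groups are named by their labels only. Total counts were 3040452 to 4632817 in the DMBA3-4 group and 2752005 to 3978901 in the DMSO3-1 group. About 3 counts are the upper 95% limit of the expected count when 0 are observed. They correspond to 0.633 to 1.01 CPM (counts scaled by library size) and 0.757 to 1.10 CPM. DMSO3-1 replicates 1 and 6 stood apart from the other 4 of their group, at 40.7 and 41.1 against 62.0 to 69.3 on the first principal component of all tested genes (72.4% of the variance) and at -35.5 and -36.9 against -5.33 to 23.8 on the second (7.91%). DMBA3-4 replicate 5 also stood apart, at -32.4 against -70.1 to -47.4 on the first component and at -16.8 against 3.29 to 7.22 on the second. Between the groups, edgeR's quasi-likelihood test with Benjamini-Hochberg adjustment called 60.1% of the 11511 tested genes at an adjusted p under 0.05. In DMBA3-4 libraries 29.9% of tested genes were higher and 30.2% were lower.

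The 7 genes lie within 263.8 kb of chromosome 11, between positions 82951349 and 83215154 of GRCm38 (GENCODE M21 annotation). In the order of the chromosome they are Slfn5 (+ strand), Slfn9 and Slfn8 (both - strand), Slfn2, Slfn1, Slfn4 and Slfn3 (all + strand), with the pseudogene Slfn10-ps between Slfn8 and Slfn2. The promoters of the 3 tested genes and of Slfn5 are shown because a common interferon element falls in only some of them. Each window runs from 250 bases before the annotated start to 50 bases after it, 5′ to 3′ on the strand of the gene (RefSeq, GRCm38.p6). They are chr11:83064862-83065161 (+) for Slfn2, chr11:83020761-83021060 (-) for Slfn8, chr11:82991781-82992080 (-) for Slfn9 and chr11:82951852-82952151 (+) for Slfn5. Capitals mark the interferon-stimulated response element (ISRE) letters in Slfn8, Slfn9 and Slfn5, and the shorter IRF core letters in Slfn2.
Slfn2: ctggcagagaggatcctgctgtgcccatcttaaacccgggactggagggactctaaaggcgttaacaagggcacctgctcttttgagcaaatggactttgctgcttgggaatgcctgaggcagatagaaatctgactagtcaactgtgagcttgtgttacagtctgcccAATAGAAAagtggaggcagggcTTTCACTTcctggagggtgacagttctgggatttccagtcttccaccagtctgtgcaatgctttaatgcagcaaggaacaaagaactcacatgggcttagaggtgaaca
Slfn8: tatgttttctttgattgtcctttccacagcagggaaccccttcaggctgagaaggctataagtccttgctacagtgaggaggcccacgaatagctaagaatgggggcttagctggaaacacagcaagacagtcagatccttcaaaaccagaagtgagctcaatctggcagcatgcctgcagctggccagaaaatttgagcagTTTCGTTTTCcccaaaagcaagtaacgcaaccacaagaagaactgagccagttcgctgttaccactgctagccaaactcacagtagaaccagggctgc
Slfn9: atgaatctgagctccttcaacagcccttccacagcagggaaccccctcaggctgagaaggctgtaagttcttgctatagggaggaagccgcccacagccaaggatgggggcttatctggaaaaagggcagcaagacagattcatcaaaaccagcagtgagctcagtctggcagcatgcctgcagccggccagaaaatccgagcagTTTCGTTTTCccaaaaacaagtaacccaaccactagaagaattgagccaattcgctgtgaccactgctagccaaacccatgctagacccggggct
Slfn5: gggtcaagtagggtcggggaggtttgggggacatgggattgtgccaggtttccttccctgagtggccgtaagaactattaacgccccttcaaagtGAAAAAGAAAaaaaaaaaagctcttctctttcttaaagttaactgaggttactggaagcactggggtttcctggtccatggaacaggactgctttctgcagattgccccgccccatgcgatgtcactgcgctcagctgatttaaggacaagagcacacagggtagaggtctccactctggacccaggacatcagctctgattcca

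Both strands were searched for GAAANNGAAA (ISRE), for AANNGAAA, which is the IRF core and lies inside the ISRE, and for TTCNNNGAA (GAS, the element of STAT dimers). The ISRE letters were found in 3 of the 7 genes, at 48 bases before the start of Slfn8, 45 bases before that of Slfn9 and 155 bases before that of Slfn5, against 3.44% of 32851 promoter windows of all genes. Slfn8 has a second listed start, and the same match lies 136 bases before it. The Slfn5 window, which begins at 82951852, lies inside the GENCODE gene, which starts at 82951349. In Slfn8 and Slfn9 the match read TTTCGTTTTC on the printed strand, which is the reverse orientation, and the windows of these 2 genes were 81.3% identical over 310 alignment columns. Slfn2 had no ISRE letters and 2 IRF core matches, at 81 and 59 bases before its start. The IRF core letters were found in all 7 genes, against 23.9% of all windows, and the GAS letters in none of the 7, against 8.30%. These matches describe the windows, and binding was not measured.

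Slfn2, the gene whose loss in mice ends the quiescence of T cells and which shields transfer RNA from cleavage in T cells, was present in every DMBA3-4 library and nearly absent from DMSO3-1 libraries. Its level was 29.8, 28.1, 28.1, 21.1, 18.3 and 32.7 CPM in DMBA3-4 replicates 1 to 6, against 0 CPM in 5 of the 6 DMSO3-1 libraries and 0.293 CPM in DMSO3-1 replicate 4. The lowest DMBA3-4 library held 63 counts and the whole DMSO3-1 group held 1, so the groups did not overlap. Summed over the libraries these were 634 counts against 1, a depth-corrected ratio of 522 with an exact 95% counting interval of 93.3 to 20640, which covers counting error only. The log2 fold change fitted by edgeR was 8.26 (SE 0.42, adjusted p = 3.13e-10), a size that depends on the prior count because 1 group is almost at 0. Slfn2 passed the count filter only through DMBA3-4 libraries. Among those 6 the level had a coefficient of variation of 20.7%. Gm20234, which overlaps Slfn2 on the opposite strand, held 1 count in all in DMBA3-4 libraries and 0 in the others. In bulk libraries such as these, fewer cells of a type and less RNA per cell cannot be told apart.

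Slfn8, a long member with the helicase-like region whose overexpression in mice reduces thymic growth, was higher in DMBA3-4 libraries but was detected in all 12. Its level was 10.1, 17.8, 19.8, 10.7, 13.2 and 23.5 CPM in DMBA3-4 replicates 1 to 6, against 2.02, 1.83, 3.22, 5.57, 6.35 and 5.49 CPM in DMSO3-1 replicates 1 to 6. The lowest DMBA3-4 value lay above the highest DMSO3-1 value. Slfn8 held 6 to 21 counts per DMSO3-1 library and would not have passed the count filter without the DMBA3-4 libraries. The means were 15.9 ± 5.37 CPM and 4.08 ± 1.97 CPM (SD, n = 6 each), and the log2 fold change was 1.97 (SE 0.32, adjusted p = 9.84e-05 in edgeR's quasi-likelihood test). With DMSO3-1 replicates 1 and 6 left out it was 1.91, and with replicates 2 to 5 left out it was 2.10, both past the threshold (adjusted p = 2.15e-04 and 0.00255). Of all tested genes, 96.72% had a smaller or equal log2 fold change.

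Slfn9, the neighbor of Slfn8 and its closest relative among the long members, had a higher mean in DMBA3-4 libraries but did not pass the test. Its level was 15.8, 16.8, 25.3, 19.1, 12.1 and 15.6 CPM in DMBA3-4 replicates 1 to 6, against 3.28, 14.6, 10.01, 13.5, 16.3 and 7.32 CPM in DMSO3-1 replicates 1 to 6. The groups overlapped, since DMSO3-1 replicates 2, 4 and 5 lay above the lowest DMBA3-4 library. The means were 17.5 ± 4.46 CPM and 10.8 ± 4.93 CPM (SD, n = 6 each), with a log2 fold change of 0.69 (SE 0.30, adjusted p = 0.0572). The DMSO3-1 replicates 1 and 6 that stood apart over all genes were also the lowest 2 of 12 for Slfn9. With them left out the log2 fold change was 0.38 (adjusted p = 0.158), and with DMSO3-1 replicates 2 to 5 left out it was 1.72 (adjusted p = 0.00191). Leaving out DMBA3-4 replicate 5, DMSO3-1 replicate 2 or DMSO3-1 replicate 5 brought Slfn9 past the threshold as well, at log2 fold changes of 0.78, 0.79 and 0.85 (adjusted p = 0.0393, 0.0460 and 0.0267).

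**Figure D1:**
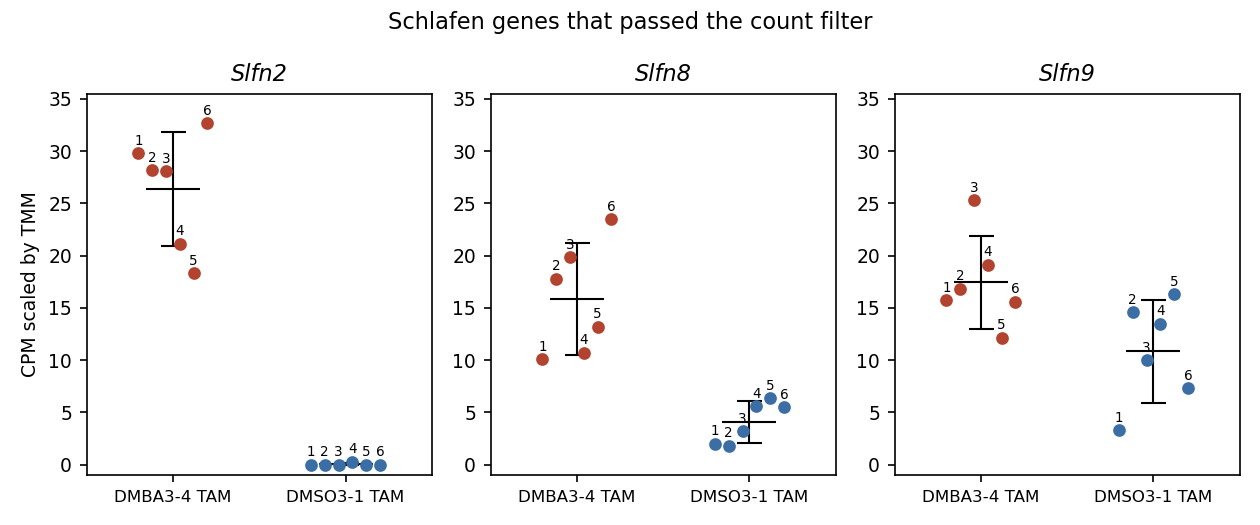
Level of Slfn2, Slfn8 and Slfn9 in each library, in CPM scaled by TMM (the trimmed mean of M-values), with the replicate number above each point, DMBA3-4 TAM on the left and DMSO3-1 TAM on the right of each panel. The horizontal mark is the mean and the whiskers are 1 SD (n = 6). Slfn2 and Slfn8 did not overlap between the groups, while Slfn9 at 12.1 to 25.3 CPM overlapped 3.28 to 16.3 CPM.

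Of the 3 members tested, 2 were called higher, where 29.9% of all tested genes were, and the same 2 did not overlap between the groups, where 17.0% of all tested genes did not overlap and were higher in DMBA3-4 libraries. Neither of the 2 called members would have passed the filter without the DMBA3-4 libraries, where they were high. With 3 tested members, nothing was read from these counts about the family as a whole.

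Slfn8 and Slfn9 lie side by side and both hold an ISRE match, and the balance between their counts is described here with no test, since it was chosen after the counts of both genes had been seen. Slfn8 made up 39.0%, 51.4%, 43.9%, 36.0%, 52.1% and 60.1% of the counts of both genes in DMBA3-4 replicates 1 to 6, against 38.1%, 11.1%, 24.3%, 29.2%, 28.0% and 42.9% in DMSO3-1 replicates 1 to 6. The means were 47.1% ± 9.08 and 28.9% ± 11.1 (SD, n = 6 each), a difference of 18.2 percentage points, with the shares of the 2 groups overlapping. The DMSO3-1 replicates 1 and 6 had the 2 highest shares of their group. With them left out the difference was 23.9 points, and with DMSO3-1 replicates 2 to 5 left out it was 6.62 points. The counting was also not fully separate between the 2 genes, since 9.30% of all 50-base stretches in Slfn8 transcripts occur in Slfn9 and 10.1% occur in Slfn10-ps, while 6.52% of those in Slfn9 occur in Slfn8. At 100 bases, 3.39% of Slfn8 and 3.71% of Slfn9 stretches were shared with any other gene. How the authors' counting treated reads from shared stretches is not stated in the sources used here, so the split between the 2 genes is uncertain.

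**Figure D2:**
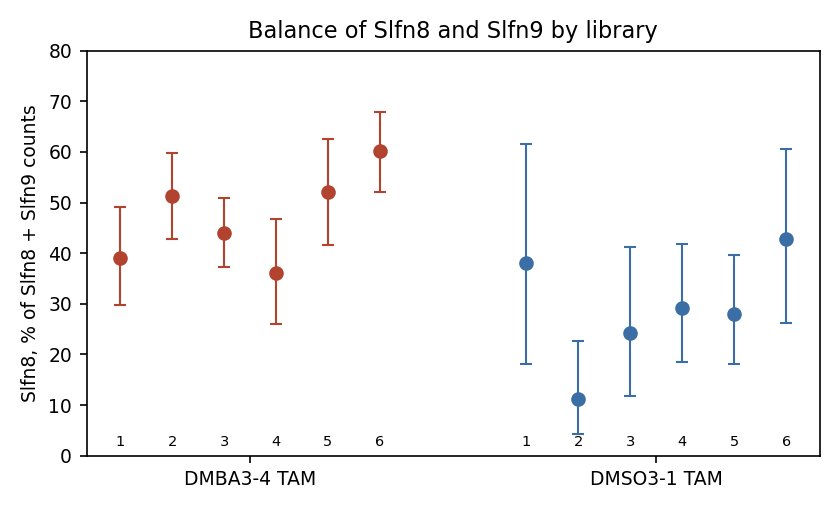
Slfn8 as a percentage of the counts of Slfn8 and Slfn9 together, 1 point per library with its replicate number below, DMBA3-4 TAM on the left and DMSO3-1 TAM on the right. Bars are exact Clopper-Pearson 95% intervals and cover counting error only. The shares were 36.0% to 60.1% against 11.1% to 42.9%.

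The other 4 members were below the count filter in both groups. Slfn3, which in rodents is known from the differentiation of intestinal epithelium, was the most frequent of them, with 4, 0, 0, 1, 1 and 3 counts in DMBA3-4 replicates 1 to 6, against 5, 8, 3, 10, 0 and 1 counts in DMSO3-1 replicates 1 to 6. The sums were 9 counts against 27, a depth-corrected ratio of 0.274 with an exact 95% counting interval of 0.114 to 0.601, and the groups overlapped. Without the count filter, where 25.0% of 33387 genes were called, the edgeR log2 fold change of Slfn3 was -1.69 (adjusted p = 0.0739), so the counting interval did not include a ratio of 1 but the test over libraries made no call.

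Slfn4, which is known from the differentiation and activation of macrophages, had 0, 2, 0, 1, 0 and 1 counts in DMBA3-4 replicates 1 to 6 and 0 counts in all 6 DMSO3-1 libraries. Slfn1, whose forced expression in mouse T cells blocks their growth, had 1 count in DMBA3-4 replicate 1 and 3 counts in DMSO3-1 replicate 5, and 0 counts in the other 10 libraries. Slfn5, a nuclear member that in human tumor cell lines represses interferon-induced transcription, had 1 count in DMBA3-4 replicate 1 and 1 count in DMSO3-1 replicate 4. Without the count filter their adjusted p-values were 0.113, 0.403 and 0.941, at log2 fold changes of 2.60, -1.25 and -0.13, so a difference was not detectable at this depth. The relatives outside the 7 were as low. Slfn10-ps had 1 to 5 counts per library against 0 to 4, Slfn14, known from platelets and their precursors, had 2 counts in all against 1, and Slfnl1, on chromosome 4, had 5 against 4.

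**Figure D3:**
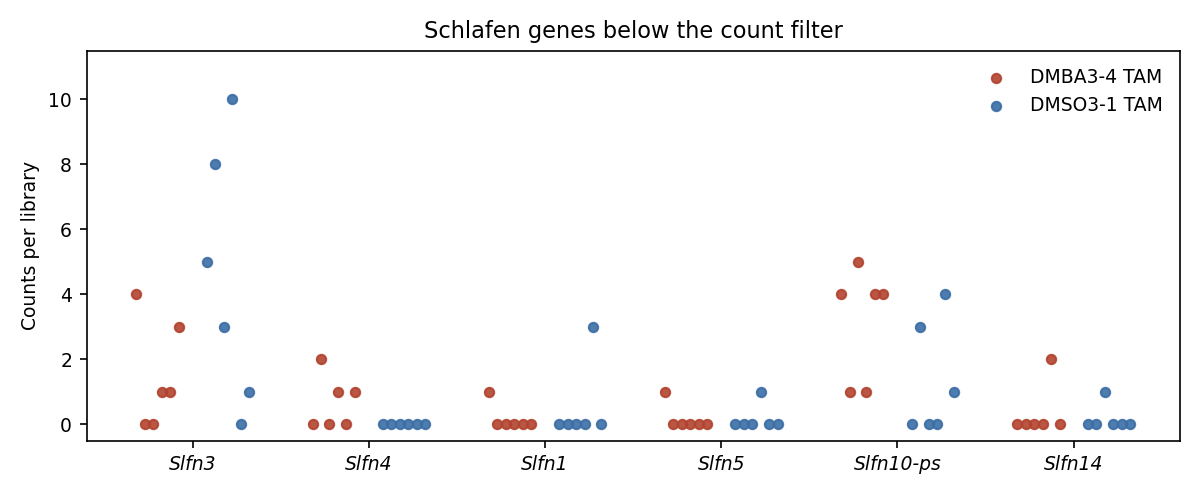
Counts per library of the 4 members below the count filter and of the relatives Slfn10-ps and Slfn14, with the 6 DMBA3-4 libraries on the left and the 6 DMSO3-1 libraries on the right of each gene. Slfn3 reached 4 counts against 10, and no gene shown exceeded 10 counts in any library.

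Per kb of exonic length, Slfn2 was the most abundant member in DMBA3-4 libraries, at 15.8 ± 3.28 CPM per kb (SD, n = 6), followed by Slfn8 at 3.88 ± 1.31 and Slfn9 at 2.93 ± 0.748. The other 4 averaged 0.114 (Slfn3), 0.0447 (Slfn4), 0.0220 (Slfn1) and 0.00648 (Slfn5) CPM per kb. In DMSO3-1 libraries the order was Slfn9 at 1.82 ± 0.827 CPM per kb, Slfn8 at 0.997 ± 0.482, Slfn3 at 0.394 ± 0.336, Slfn1 at 0.0811 ± 0.199, Slfn2 at 0.0294 ± 0.0720, Slfn5 at 0.00773 ± 0.0189 and Slfn4 at 0. Slfn2 lay above both long members in 6 of 6 DMBA3-4 libraries and in 0 of 6 DMSO3-1 libraries. Slfn8 lay above Slfn9 in 4 of 6 and 1 of 6, and in both groups the means of these 2 neighbors in the order differed by less than the larger of their SDs. In DMSO3-1 libraries Slfn8, at 0.446 to 1.55 CPM per kb, also overlapped Slfn3, at 0 to 0.860. The levels of Slfn1, Slfn3, Slfn4 and Slfn5 all overlapped one another in both groups.

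The members were more alike over all libraries than within the groups. Over 12 libraries, Pearson's r of log2(CPM + 1) was 0.889 between Slfn2 and Slfn8, 0.590 between Slfn2 and Slfn9 and 0.643 between Slfn8 and Slfn9. After the group means were taken off, it was 0.418, 0.235 and 0.356. All points share the libraries and their depth, so these values are descriptions, and since Slfn2 was at 0 in 5 of 6 DMSO3-1 libraries its values within groups rest in effect on the 6 DMBA3-4 libraries. Among 9711 genes with a mean of at least 5 CPM, the 3 most like Slfn2 within groups were Slc9a9, an endosomal sodium-proton exchanger (r = 0.903), Gmpr, a GMP reductase (r = 0.902), and Ddx11, a DNA helicase (r = 0.844). Those most like Slfn8 were Ecsit, a mitochondrial complex I assembly and Toll-like receptor signaling factor (r = 0.873), Apobec3, a cytidine deaminase that restricts retroviruses (r = 0.867), and Slc22a15, a solute carrier (r = 0.850). Those most like Slfn9 were Nsmce3, a subunit of the Smc5/6 complex (r = 0.942), Clasp2, a microtubule plus-end protein (r = 0.922), and Diaph3, a formin (r = 0.903). These are the highest of 9711 values each, given as a description with no test.

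Interferon signaling was read from a list of 20 genes, of which 19 were tested, which holds the receptor chains and kinases of type I interferon and also those of interferon gamma. Of these, 8 were higher, 4 were lower and 7 were not called, where 29.9% of all tested genes were higher and 30.2% lower. The share called in either direction lay near the 60.1% of all tested genes, with more of the calls higher than lower. The median log2 fold change was 0.00, against 0.00 over all genes tested. Stat2, a signal transducer of the type I interferon receptor, was higher in DMBA3-4 libraries, at 49.3 ± 8.24 CPM against 13.0 ± 4.50 CPM in DMSO3-1 libraries (log2 fold change 1.93, SE 0.21). Irf9, its DNA-binding partner, was higher too, at 89.6 ± 16.3 CPM against 19.8 ± 5.88 CPM (log2 fold change 2.18, SE 0.21). Their adjusted p-values in edgeR's test were 1.46e-06 and 4.88e-07.

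Irf7, the factor that amplifies interferon production, averaged 163 ± 16.6 CPM in DMBA3-4 libraries, against 9.67 ± 2.12 CPM in DMSO3-1 libraries (SD, n = 6 each, log2 fold change 4.07). Usp18, the protease that removes ISG15 and damps the receptor, averaged 91.8 ± 26.1 CPM against 2.24 ± 0.871 CPM (log2 fold change 5.38). At 3 to 9 counts per DMSO3-1 library, Usp18 passed the count filter only through DMBA3-4 libraries, a limit on its call as higher. The receptor chains of type I interferon were not higher. Ifnar1 was lower, at 69.1 ± 7.05 CPM against 103 ± 9.03 CPM (log2 fold change -0.57, adjusted p = 2.28e-04), and Ifnar2 was not called, at 53.0 ± 6.98 CPM against 60.4 ± 3.87 CPM (adjusted p = 0.166). Socs3, a feedback inhibitor of cytokine receptors, was also lower, with a log2 fold change of -1.85. Across the 12 libraries r was 0.993 between Slfn2 and Irf7, and within the groups it was 0.274. With Stat2, Irf9, Irf7 and Usp18, r within the groups was 0.274 to 0.446 for Slfn2, -0.375 to 0.318 for Slfn8 and -0.341 to 0.574 for Slfn9.

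Slfn2 is known in T cells as a shield of transfer RNA against the ribonuclease angiogenin, so genes of transfer RNA cleavage and protection were read as well. Of 12 genes listed and 11 tested, 1 was higher, 1 was lower and 9 were not called, where 60.1% of all tested genes were called, with a median log2 fold change of -0.12. Trdmt1, a methyltransferase of transfer RNA, was higher, at 14.3 ± 1.80 CPM against 6.41 ± 1.75 CPM (log2 fold change 1.16, adjusted p = 3.03e-04), and Dusp11, an RNA phosphatase, was lower, at 100 ± 4.72 CPM against 149 ± 21.7 CPM (-0.57, adjusted p = 2.62e-04). Ang, which encodes angiogenin, averaged 7.18 ± 2.08 CPM against 9.80 ± 1.99 CPM (adjusted p = 0.109), and its inhibitor Rnh1 averaged 673 ± 31.9 CPM against 607 ± 63.7 CPM (adjusted p = 0.168), all by edgeR. The count of 2 called genes became 7 with DMSO3-1 replicates 1 and 6 left out, 8 with replicates 2 to 5 left out and 4 without DMSO3-1 replicate 1 alone.

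Growth control, with which the family was first associated, was read from 14 genes of the G1 phase and of replication, all tested. Of these, 7 were higher, 2 were lower and 5 were not called, a share called near the 60.1% of all tested genes, with a median log2 fold change of 0.34. Ccnd2, a D-type cyclin, was higher, at 210 ± 33.4 CPM against 10.6 ± 4.26 CPM (log2 fold change 4.31). Ccnd1, which forced Slfn1 expression represses in cultured mouse cells, was lower, at 197 ± 30.6 CPM against 299 ± 65.3 CPM (log2 fold change -0.60, adjusted p = 0.00272 in edgeR's test). Cdk6, the kinase partner of the D-type cyclins, was lower by the same test (-0.88), while Ccne1, the cyclin of entry into S phase, and Rpa1 and Rpa2, subunits of the complex that binds single-stranded DNA, were higher (log2 fold changes of 1.35, 0.62 and 0.54).

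Around the cluster, 58 genes were annotated within 500 kb of its ends and 11 of them were tested. Of these, 4 were higher (Zfp830, Ccl5 and Ccl9 among them), 6 were lower (Lig3, Rffl, Nle1, Ap2b1, Mmp28 and Taf15) and Rad51d was not called, where 60.1% of all tested genes were called, with a median log2 fold change of -0.56. The nearest tested gene before the cluster, Nle1, a factor of ribosome assembly 42.9 kb away, was lower (log2 fold change -1.81, adjusted p = 1.35e-04). Taf15, an RNA-binding protein, and Mmp28, a matrix metalloproteinase, were lower as well (log2 fold changes of -2.44 and -2.23). Both passed the count filter only through DMSO3-1 libraries.

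Ccl5, the chemokine RANTES, 310.6 kb beyond the cluster, was another gene nearly absent from DMSO3-1 libraries, and it passed the count filter only through DMBA3-4 libraries. It averaged 78.3 ± 21.5 CPM in DMBA3-4 libraries, at 186 to 439 counts per library, against 0.144 ± 0.227 CPM in DMSO3-1 libraries, at 0 to 2 counts (SD, n = 6 each, edgeR adjusted p = 1.45e-10). Ccl9, a chemokine of myeloid cells farther along, averaged 15.8 ± 6.29 CPM against 1.81 ± 1.05 CPM (log2 fold change 3.06, adjusted p = 7.64e-06). Like Ccl5, Ccl9 passed the count filter only through DMBA3-4 libraries, with 2 to 11 counts per DMSO3-1 library. Genes that rose and genes that fell thus stood on both sides of the cluster, as the map of log2 fold changes by distance shows.

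**Figure D4:**
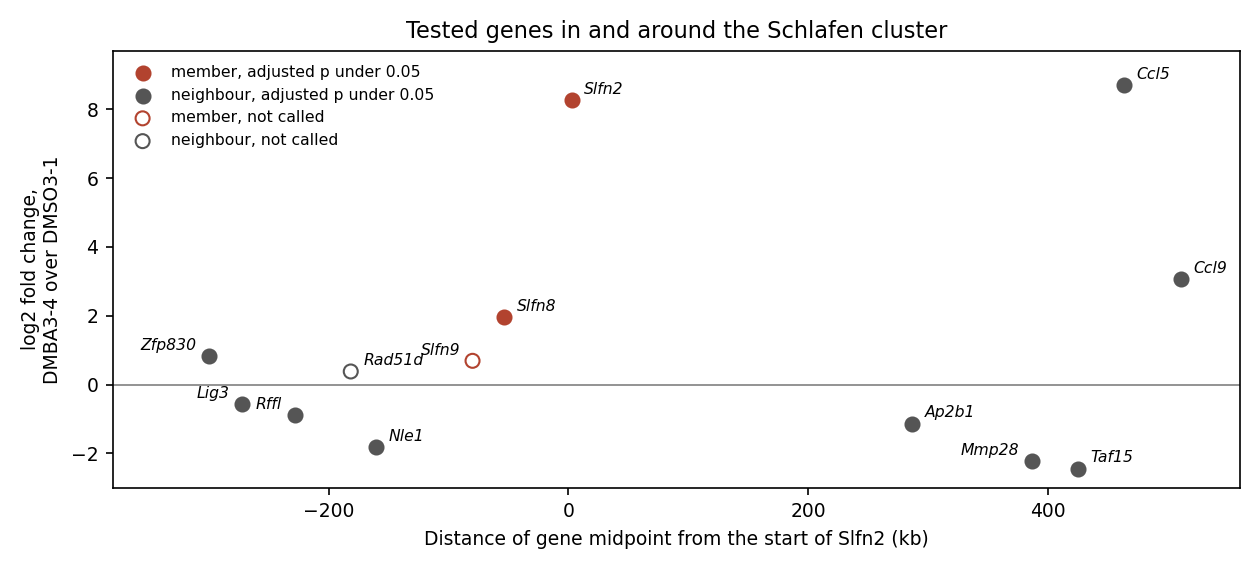
Fitted log2 fold change, DMBA3-4 over DMSO3-1, of the 3 tested members (red) and 10 of the 11 tested neighbors (grey) by the distance of each gene's midpoint from the start of Slfn2, in kb. Filled points had an adjusted p under 0.05. Slfn2 at 8.26 and Ccl5 at 8.70 were almost at 0 in DMSO3-1 libraries, so their sizes depend on the prior count, and called genes on both sides of the cluster lie above and below 0.

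A second deposited table, from the authors' comparison, gives for each gene 1 mean normalized count over its samples and no value per library, and its sample names differ from those of the count table. The family stood differently in it. The 4 members near 0 in the count table had authors' means of 742 for Slfn4, 322 for Slfn1, 215 for Slfn5 and 9.25 for Slfn3, beside 707 for Slfn2, 161 for Slfn8 and 59.1 for Slfn9. Per kb, the authors' mean was highest for Slfn2 (425), followed by Slfn4 (187), Slfn1 (173), Slfn8 (39.3), Slfn5 (33.9), Slfn9 (9.90) and Slfn3 (2.71). Among 37140 genes in both tables, Slfn4 stood at the 97.9th percentile of the authors' means and at the 40.7th of the mean CPM of the count table. Slfn1 stood at the 94.2nd and 41.8th percentile and Slfn5 at the 91.1st and 31.6th, while Slfn9 stood at the 79.6th and 77.5th. The 12 macrophage markers held 3.71% of the summed authors' means. In the count table Slfn4 held 4 counts in all in DMBA3-4 libraries and 0 in DMSO3-1 libraries. The authors' mean of 742 for Slfn4 is therefore not a rescaling of these counts. Whether both tables come from the same samples is not stated in the sources used here, so the values of the count table hold for its own libraries only. The tables were normalized separately, so these levels were not tested against each other, and the part of cell composition in the difference was not tested.

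**Figure D5:**
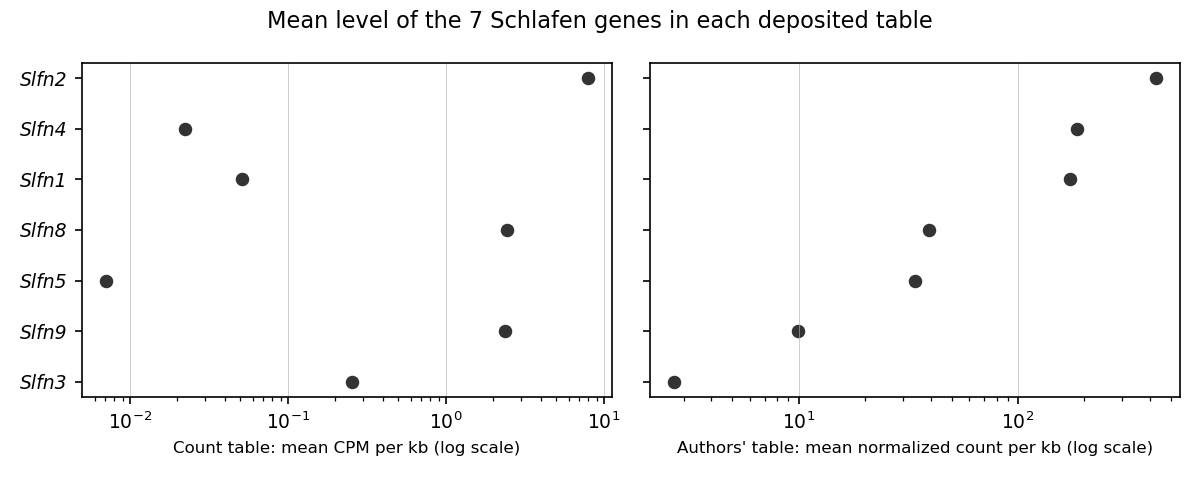
Mean level per kb of exonic length of the 7 members in the count table (left, mean CPM over 12 libraries) and in the authors' table (right, the authors' mean normalized count), both on log scales and normalized separately. Averaged over both groups, Slfn2 was the highest member in both tables, although in DMSO3-1 libraries alone it lay below Slfn9, Slfn8, Slfn3 and Slfn1, while Slfn4 was second in the authors' table at 187 per kb and sixth in the count table at 0.0224 CPM per kb.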

How the data were processed

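The 12 RNA libraries were grouped by the exposure in their labels, 6 as DMBA3-4 TAM and 6 as DMSO3-1 TAM. The deposited gene counts are whole numbers with no normalization by the authors. The submitters' processing notes name GRCm38 (mm10), with aligner and counter not given in the sources used here. In the paper, methods describe SmartSeq2 and the labels another library kit. The authors' second table holds a mean normalized count, used here as a signal with no SD, and their log2 fold change, its standard error, a statistic and p-values, which were not used.

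The members and gene lists were chosen with earlier results of these data known. From the counts, 19 entries with a number for a name (0.0893% to 0.128% of counts) were left out. Genes were filtered with filterByExpr, scaled by TMM and tested over 11511 genes with edgeR 4.0.16 (robust quasi-likelihood, Benjamini-Hochberg, threshold 0.05) in R 4.3.3, after a test on simulated data. SE is the log2 fold change over the root of F. Levels are CPM, per kb of GENCODE M21 exons where genes are compared. Depth limited the 4 members below the filter. Alternatives were DESeq2 1.42.0, limma-voom (limma 3.58.1), other scalings, other filters, a threshold of 0.01, a replicate block and leaving out libraries. Named genes were all members, up to 6 called genes of largest change per list with Ifnar1, Ifnar2, Stat2, Irf9, Ccnd1, Ang and Rnh1, up to 6 neighbors with an absolute log2 fold change of at least 1 and the nearest on each side, and 3 most alike genes per tested member. Some genes that these rules name are not reported here.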

Additional observations from a re-analysis of the deposited data

Results flagged for a closer look

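In DMSO3-1 libraries, Slfn2 in replicate 4 (0.293 CPM, from 1 count) lay apart from the other 5, all at 0. The usual chance rate of such gaps, about 1 of 20 groups, does not hold here, because any group with a count in 1 of 6 libraries alone shows one. Members that were near 0 in the count table had a signal in the authors' other table, which the comparison between groups did not use. Their mean normalized counts there were 742 for Slfn4, 322 for Slfn1, 215 for Slfn5 and 9.25 for Slfn3.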

How the results depend on the processing

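Slfn2 and Slfn8 kept their direction and their call under all 24 alternatives, at log2 fold changes of 7.14 to 9.64 (adjusted p = 2.25e-67 to 3.51e-07) and 1.81 to 2.15 (adjusted p = 1.26e-11 to 0.00255). For Slfn2, at 634 counts against 1, no alternative could have reversed the direction, so its stability adds no support. Slfn9 stayed positive in all 24 and was called in 10 (adjusted p = 0.00191 to 0.158). It passed the threshold with library totals alone (0.75), upper quartile scaling (0.78), DESeq2 (0.69), limma-voom (0.85), no count filter (0.75) and DMSO3-1 replicates 2 to 5 left out (1.72), and ranged from 0.49 to 0.85 with 1 library left out at a time. The cause was not tested. The number of genes called was 6490 to 7139 with 1 library left out, 4605 with DMSO3-1 replicates 2 to 5 left out and 8354 with no count filter, which moved the median of all genes to -0.13. The transfer RNA list had 7 called genes with DMSO3-1 replicates 1 and 6 left out, 8 with replicates 2 to 5 left out, and 2 to 4 with 1 library left out. The difference in the share of Slfn8 was 14.6 to 20.9 points with 1 library left out and 6.62 with DMSO3-1 replicates 2 to 5 left out.

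Replicate numbers did not pair the libraries. Deviations of same-numbered libraries correlated at -0.16 to 0.13, over 0.1 in 1 of 6 pairs, and 1 of 6 libraries correlated best with its own number. With a replicate block 6481 genes were called and Slfn9 had a log2 fold change of 0.77 (edgeR adjusted p = 0.0497). In the replicate block without the count filter, chosen after seeing the data, Slfn5 changed sign, at 0.043 against -0.13. With 0 to 10 counts per library, depth limits Slfn1, Slfn3, Slfn4 and Slfn5.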
